A study of Mus musculus with 6 samples.

Results

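The distal end of mouse chromosome 4 holds an array of zinc-finger genes and pseudogenes. All genes with a GENCODE M21 start between 145 Mb and 148.2 Mb of chromosome 4 (GRCm38) were taken, and those with 5 or more read counts summed over the 6 libraries were kept. This left 45 genes of the 118 in the window, out of 24612 genes of the whole series with the same minimum. Of the other window genes, 20 had 1 to 4 counts and 53 had 0 counts in all libraries. The 45 members were thus chosen by their summed read counts, and the window itself was drawn with 4 of its genes, Zfp990, Smarca5-ps, Gm16503 and Gm13136, already known to differ in these data. The members were 28 protein-coding genes, 13 pseudogenes, 3 long intergenic RNAs and 1 antisense RNA. Of the 28 coding genes, 11 were zinc-finger genes by their symbol or by at least 3 zinc-finger matches in their coding sequence, and 17 were other coding genes.

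RNA of whole brains at postnatal day 14 was sequenced, with 1 library per brain. The 3 controls were Mphosph8fl/+ Nestin-Cre+ and the 3 mutants Mphosph8fl/fl Nestin-Cre+ (labelled Mphosph8∆n), all on the C57BL/6J strain. Nestin-Cre is a recombinase transgene active in neural progenitors and their progeny. Both groups carried it, and controls carried a floxed allele too, which it can delete in that lineage. The control labels also read HET, so the fold changes set mutants against heterozygous brains, not against brains with the gene intact. Cells of the brain outside that lineage keep the gene in the mutants. Libraries held 12956880 to 15223424 counts on genes. The members took 0.0672% to 0.0718% of them, and many genes of the array rested on few counts per library.

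Most zinc-finger proteins of such arrays carry a KRAB domain, which recruits the corepressor TRIM28 and the H3K9 methyltransferase SETDB1 to the DNA sequences the fingers bind, often in transposable elements. The genes lie in clusters that grew by repeated duplication, so neighbours are close copies of each other. Mphosph8 encodes MPP8, the chromodomain protein of the HUSH complex, which binds H3K9me3 and takes part in silencing transposable elements and other integrated or intron-poor sequences together with TASOR (Fam208a) and periphilin (Pphln1).

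The sequences below are printed because the members that differed most between genotypes were a zinc-finger gene, a pair of retrocopies of one gene and a single-exon gene. Zfp990, Smarca5-ps and Gm16503 are transcribed in the direction of rising coordinates and Gm13136 in the other. All were read from the GENCODE M21 transcripts. Zfp990 (145510759 to 145539188, up to 5 exons) has a coding sequence of 605 codons with 13 matches to the finger pattern of 2 cysteines and 2 histidines that hold a zinc ion. The 63 bases of one finger, at chr4:145537241-145537303, are given with the codons of those cysteines and histidines in capitals.
Zfp990 finger: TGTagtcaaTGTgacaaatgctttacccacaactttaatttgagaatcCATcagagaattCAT

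Smarca5-ps (145464204 to 145467420) and Gm13136 (147735477 to 147738426) are processed pseudogenes of Smarca5, which encodes the chromatin-remodelling ATPase SNF2H on chromosome 8. The parent has 24 exons and 3153 coding bases. The window holds 6 such copies, with 1 exon in 4 of them and 2 exons in Gm13231 and Gm13140, and they cover 90.7% to 100% of the parent's coding bases. In a joint alignment, with positions gapped in either sequence of a pair left out, the copies were 97.6% to 98.4% identical to Smarca5. By the same measure they were 97.1% to 98.9% identical to each other. Aligned separately to the Smarca5 transcript with gaps counted, they were 96.8% to 98.1% identical to it. At 16 of the 2828 aligned positions without a gap, all 6 copies shared a base that Smarca5 lacks. An 80-base stretch of Smarca5 and of all 6 copies is given with each base that differs from Smarca5 in capitals, in the order of the copies along the chromosome. The copies have 5 to 8 such bases here. The stretch was picked as the gap-free one with the most positions where Smarca5-ps or Gm13136 differs from Smarca5. It therefore holds more differences than is typical of the copies. The Smarca5 stretch is joined from both sides of an intron.
Smarca5, minus strand, chr8:80714041-80716502: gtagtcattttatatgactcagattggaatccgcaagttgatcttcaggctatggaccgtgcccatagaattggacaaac
Smarca5-ps, plus strand, chr4:145465984-145466063: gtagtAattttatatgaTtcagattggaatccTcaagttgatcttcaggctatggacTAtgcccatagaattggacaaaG
Gm13231, plus strand, chr4:145642836-145642915: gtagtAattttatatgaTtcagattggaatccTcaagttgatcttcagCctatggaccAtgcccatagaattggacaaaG
Gm13034, plus strand, chr4:146069489-146069568: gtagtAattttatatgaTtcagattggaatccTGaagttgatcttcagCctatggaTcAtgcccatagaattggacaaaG
Gm13140, plus strand, chr4:146944196-146944275: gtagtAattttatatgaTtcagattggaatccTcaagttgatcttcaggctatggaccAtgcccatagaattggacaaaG
Gm13135, plus strand, chr4:147277663-147277742: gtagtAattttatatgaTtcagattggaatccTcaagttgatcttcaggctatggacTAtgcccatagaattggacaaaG
Gm13136, minus strand, chr4:147736838-147736917: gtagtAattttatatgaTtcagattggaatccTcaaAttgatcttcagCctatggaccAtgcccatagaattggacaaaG

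Gm16503 (147540218 to 147543500) is annotated as a coding gene with 1 exon of 3283 bases, of which 309 are coding. The first 100 coding bases, at chr4:147541051-147541150, are printed because none of the 50-base words of this gene occurs in another gene's transcript, unlike those of the other members that differed most.
Gm16503 coding start: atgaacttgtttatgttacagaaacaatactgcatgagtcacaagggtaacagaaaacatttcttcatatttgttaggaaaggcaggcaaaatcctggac

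Mphosph8, the targeted gene, is floxed at exon 4, and its counts cover all exons, the undeleted ones included. It had 839, 664 and 1048 counts in control replicates 1, 2 and 3 and 414, 365 and 364 in mutant replicates 1, 2 and 3. All mutants lay below all controls. Its level fell by 1.02 ± 0.12 on the log2 scale (SE, edgeR adjusted p = 0.000157), to 28.9 ± 3.63 CPM (counts per 1000000 counts of the library; SD, n = 3) from 58.4 ± 11.3. The fall was smaller than 2-fold in 3 of the 6 fits that left out 1 library, with log2 changes of -0.85 without control replicate 3 (edgeR adjusted p = 0.000943), -0.975 without mutant replicate 2 (0.00429) and -0.955 without mutant replicate 3 (0.000719). Control replicate 3 had the sex-linked pattern of a male brain, with 27 Xist counts against 11130 to 17697 in the other libraries and 1338 Ddx3y counts against 0. The other libraries had the pattern of female brains, so sex was not balanced between the groups. Values without control replicate 3 are therefore given beside the called members.

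Zfp990, Smarca5-ps, Gm13136 and Gm16503 were called higher in mutants, meaning an edgeR adjusted p under 0.05 over all 16731 genes tested and more than a 2-fold change. They were 4 of the 26 members that had enough counts to be tested. The window was drawn with these 4 known to differ, so that share follows from the choice. Zfp990, Smarca5-ps and Gm13136 passed the count filter only through the mutant libraries. Without that filter all 45 members were tested, and the same 4 were called. Over all tested genes 0.353% were called higher and 0.00598% lower, and edgeR and DESeq2 called 0 members lower, with 1 member (Mad2l2) at an unadjusted p under 0.05 in that direction. Zfp990 had 0 counts in each control and 20, 17 and 28 in the mutants. The gene was thus seen only in mutant libraries, where its level was 1.64 ± 0.38 CPM (SD, n = 3). Set against a floor of 3 counts over the 3 controls, it was at least 23.8-fold higher in mutants (edgeR adjusted p = 0.000105; 0.00103 without control replicate 3). Smarca5-ps had 0, 1 and 0 counts in controls and 24, 14 and 26 in mutants. Its single control count makes the ratio imprecise. The ratio of summed counts was 70.2, with an exact 95% counting interval from 12.2 to 2816, and the edgeR adjusted p was 0.000157 (0.003 without control replicate 3).

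Gm13136, the Smarca5 copy near the other end of the array, had 1, 0 and 1 counts in controls and 19, 20 and 26 in mutants. The groups did not overlap, and the ratio of summed counts was 35.7, with an exact 95% interval from 9.48 to 301 (edgeR adjusted p = 8.51e-05; 0.00127 without control replicate 3). Gm16503 differed from the other called members in having a measurable level in controls, with 8, 8 and 16 counts against 37, 42 and 41 in mutants. Its level was 0.733 ± 0.302 CPM in controls and 3.02 ± 0.0962 in mutants (SD, n = 3). The log2 fold change was 2.03 ± 0.30 (SE, edgeR adjusted p = 0.0013; 2.42 and 0.0018 without control replicate 3). Counting intervals and floors cover counting error only. In these bulk brains, a change in the number of cells that express a gene and a change in its RNA per cell cannot be told apart.

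**Figure D1:**
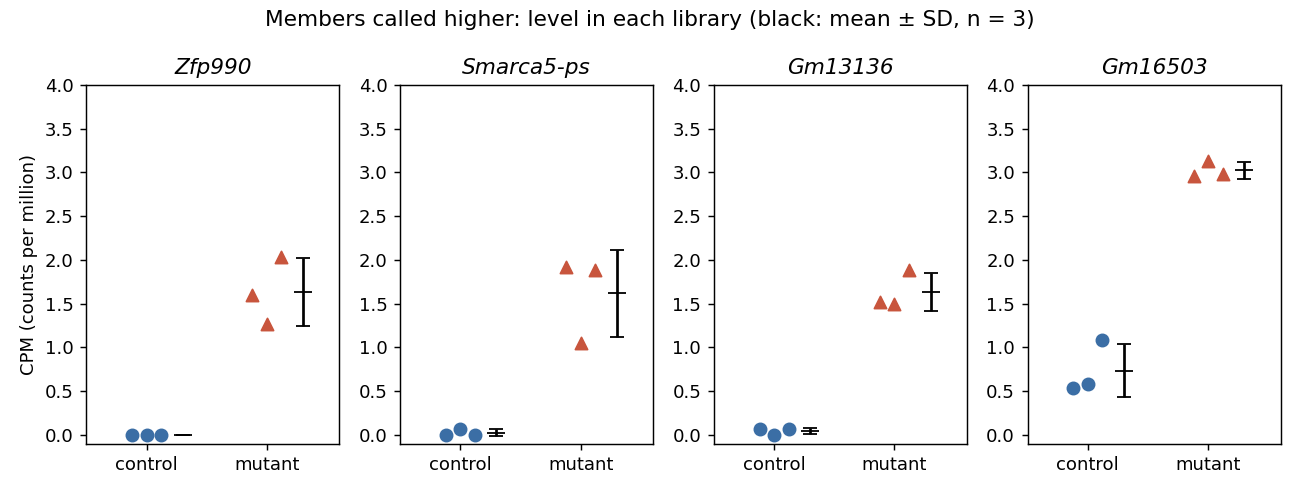
Level in CPM (vertical axis) of the called members in each of the 3 control libraries (circles) and 3 mutant libraries (triangles), with the mean and SD in black. Zfp990 sat at 0 in all controls, Smarca5-ps and Gm13136 below 0.1, and Gm16503 between 0.532 and 1.08, while every mutant library lay above 1 for each gene.

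Per length the called members were low in both groups. On the scale of CPM per kilobase of exon, the mutant means were 0.467 for Zfp990, 0.503 for Smarca5-ps, 0.554 for Gm13136 and 0.921 for Gm16503. The highest member on that scale was Fbxo2, a brain-expressed ubiquitin ligase subunit, at 45.2 in mutants and 50.5 in controls. Among the zinc-finger coding members, Zfp933 stood at 3.47 in mutants and 3.54 in controls. Zfp990 rose from below detection to a level between those of Zfp991 (0.284) and Zfp979 (0.699) in the same mutants.

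The called members were not neighbours as one block. Smarca5-ps and Zfp990 lay 43.3 kb apart on the same strand at the proximal edge of the array, and the pseudogene Gm13229, at 0 counts, lay 2.3 kb from Smarca5-ps. Gm16503 and Gm13136 lay 192 kb apart on opposite strands near the distal edge. Between Gm16503 and Gm13136 sat, among others, Zfp979, at 223 counts in all, Zfp985, at 12, and Zfp534, at 1. Gm16503 itself lay 26.7 kb from Zfp982 and 9.8 kb from Zfp985, and Gm13136 lay 15.5 kb from Zfp984.

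**Figure D2:**
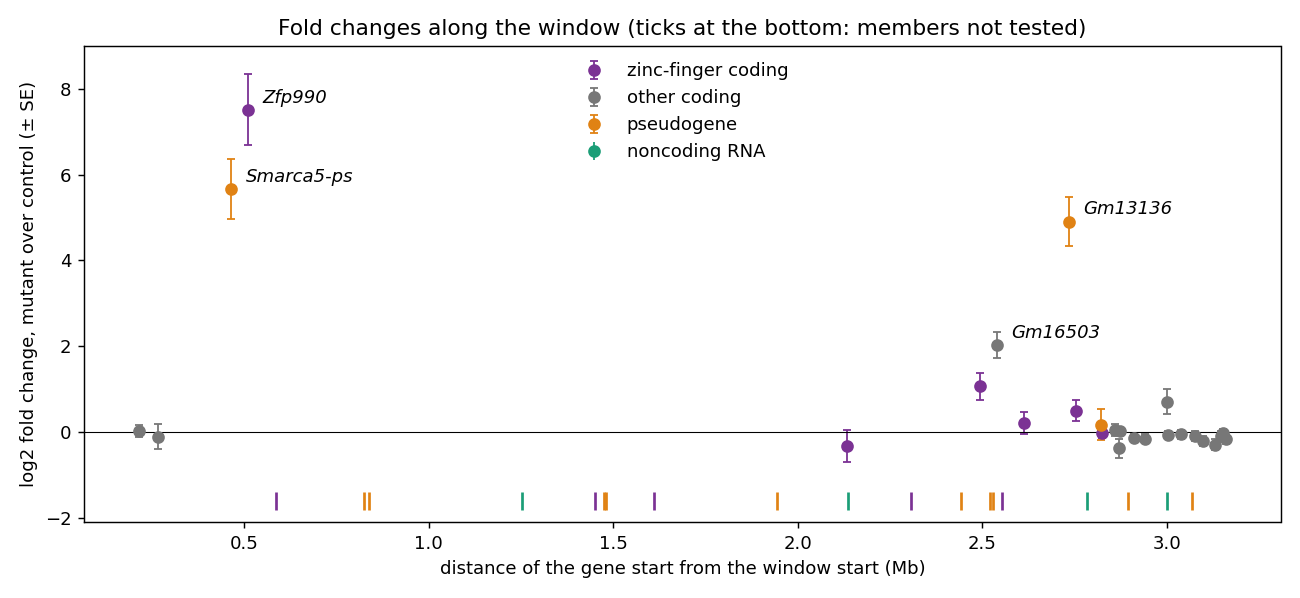
Log2 fold change of mutant over control (vertical axis, with SE bars) for the 26 tested members by the distance of their start from the start of the window in megabases, coloured by class; ticks at the bottom mark the 19 members not tested. The called members lie near both ends of the zinc-finger array, and the coding genes to the right of it lie between -0.37 and 0.71; the fitted value of Zfp990 depends on the prior count, since its controls are at 0.

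The zinc-finger coding members were called in 1 of 6 tested cases, that of Zfp990, which passed the count filter only through the mutants. Zfp982, which has 7 finger matches, had 16, 9 and 10 counts in controls and 20, 25 and 22 in mutants. Its lowest mutant lay above its highest control, at a log2 fold change of 1.06 ± 0.32 (SE), and it missed the threshold (edgeR adjusted p = 0.255). Zfp984, with 11 finger matches, had 30, 29 and 26 counts in controls and 37, 38 and 35 in mutants. These groups did not overlap either, yet the log2 fold change was 0.50 ± 0.24 (SE, edgeR adjusted p = 0.753). Every mutant lay above every control in 6.73% of all genes with 5 or more counts. Zfp979 (log2 fold change 0.22 ± 0.26), Zfp991 (-0.31 ± 0.37) and Zfp933 (-0.03 ± 0.12) had overlapping groups.

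The sum over all 11 zinc-finger coding members was 20.2, 22.1 and 23.4 CPM in controls and 23.9, 27.2 and 24.9 in mutants. All mutants thus lay above all controls, by 0.21 on the log2 scale of the group means. Zfp933 alone gave 15.1 CPM of the 21.9 CPM control mean. Without Zfp990 the sums were 20.2 to 23.4 CPM in controls and 22.3 to 25.9 in mutants, and the groups overlapped. The remaining zinc-finger coding members, Zfp992, Zfp985, Zfp988, Zfp993 and Gm13212, had 5 to 18 counts in all and were not tested in the main fit. Fitted together with all genes of 5 or more counts, of which 0.26% were called higher, 0 of these 5 were called by edgeR or DESeq2, and 0 had an unadjusted p under 0.05.

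**Figure D3:**
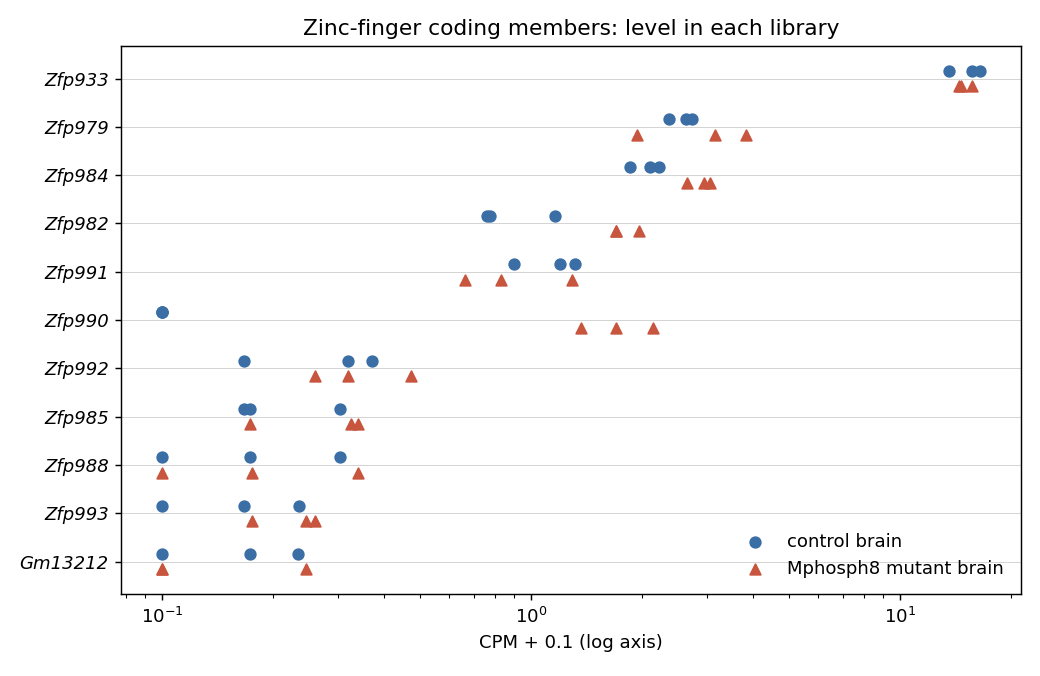
Level of the 11 zinc-finger coding members in each control library (circles) and mutant library (triangles), as CPM plus 0.1 on a log axis, ordered by mean level. The control and mutant points separate for Zfp990, Zfp982 and Zfp984 and overlap for the other genes. Over all genes with 5 or more counts, 6.73% had every mutant above every control. The window was drawn with Zfp990 known to differ, and Zfp982 and Zfp984 were not called.

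Of the 13 pseudogene members 2 were called, both of them Smarca5 copies. These 2 passed the count filter only through the mutants, and the window was drawn with both known to differ. Their share of the 3 tested pseudogenes thus follows from the choice of genes. Rps19-ps3, a copy of a ribosomal protein gene, was the other tested pseudogene, with 13, 10 and 12 counts in controls and 10, 16 and 10 in mutants (log2 fold change 0.17 ± 0.36). Its groups overlapped. The summed level of the 13 pseudogene members was 2.59, 2.64 and 2.23 CPM in controls and 6.16, 5.15 and 6.11 in mutants. Without Smarca5-ps and Gm13136 it was 2.42 ± 0.223 CPM in controls and 2.55 ± 0.203 in mutants (SD, n = 3), a difference smaller than these SDs.

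The other Smarca5 copies were at or near 0. Gm13231 had no count in any library, and Gm13135 had 1, in mutant replicate 2. Gm13140 had 2 counts in control replicate 3, 1 in mutant replicate 1 and 2 in mutant replicate 2. Gm13034 had none in controls and 1, 2 and 1 in mutants. The parent gene Smarca5 had 614, 515 and 602 counts in controls and 485, 537 and 487 in mutants, with a log2 fold change of -0.06 ± 0.09 (SE, edgeR adjusted p = 0.971). Its groups overlapped in counts and also in CPM, at 37.7 to 40.8 CPM in controls and 35.4 to 40.1 in mutants.

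The copies could be told apart by reads of this length only in part. Of all 50-base words in its transcripts, Smarca5-ps shared 62.3% with other genes, 38.2% with Smarca5 and 45.9% with Gm13135, and Gm13136 shared 77.1%. This left 1193 words of Smarca5-ps and 663 of Gm13136 that occur in no other annotated gene. The copies at or near 0 had comparable numbers, from 660 in Gm13135 to 1766 in Gm13140. Zfp990 shared 29.1% of its words, most with Zfp987 (13.1%) and Zfp534 (12.6%). Since reads of one copy may be counted on another, the values of Smarca5-ps, Gm13136 and, in part, Zfp990 are uncertain as to which copy they come from. Of the 45 members, 25 shared more than 10% of their words. Among the rest, 1 was called, Gm16503, which was known to differ when the window was drawn. Over all tested genes 0.353% were called higher.

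**Figure D4:**
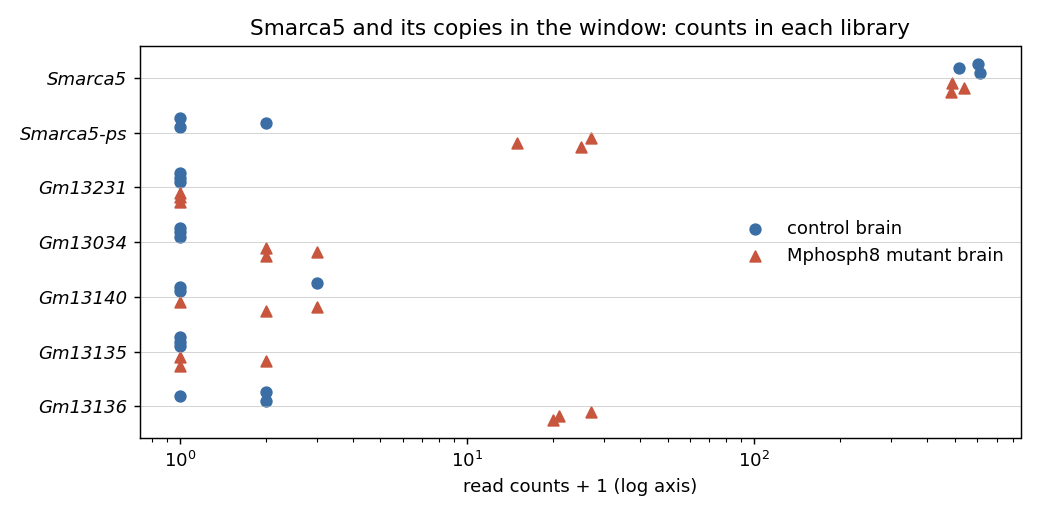
Read counts plus 1 on a log axis for Smarca5 and the 6 copies in the window, in control libraries (circles) and mutant libraries (triangles), in chromosomal order. Smarca5-ps and Gm13136 reach 14 to 26 counts in mutants while the other copies have 2 or fewer in every library, and Smarca5 stays between 485 and 614 counts.

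Exon number was not part of the rule for members, but the window was drawn with the called genes known to differ. How the calls split by exon number thus follows from that choice. Smarca5-ps and Gm13136 also passed the count filter only through the mutants. Of the 5 tested members with 1 exon in every transcript, 3 were called higher (Smarca5-ps, Gm13136 and Gm16503), and Fv1 and Rps19-ps3 were not. Of the 21 tested members with more exons, 1 was called, Zfp990. Over all tested genes with an annotation, 1.49% of the 1271 genes with 1 exon and 0.259% of the 15444 others were called higher. These shares describe the members, which were few and partly chosen for their response.

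The other coding members mostly flank the array, and 1 of 17 was called, Gm16503. The 5 with the highest CPM were Mfn2 (a mitochondrial fusion GTPase), Clcn6 (an endosomal chloride-proton exchanger), Plod1 (a collagen lysyl hydroxylase), Fbxo2 and Fbxo44 (F-box subunits of ubiquitin ligases). Their log2 fold changes ran from -0.16 (Fbxo2) to 0.02 (Mfn2), each with an SE of 0.11 or less. Mfn2 stood at 178 ± 4.47 CPM in controls and 181 ± 15.9 in mutants (SD, n = 3). Fv1, a retrovirus restriction gene derived from an endogenous Gag sequence, had 53, 53 and 40 counts in controls and 30, 36 and 37 in mutants. Fv1 had the lowest log2 fold change among tested members, -0.37 ± 0.22 (SE, edgeR adjusted p = 0.876), although all its mutants lay just below its controls in CPM. Beyond the last zinc-finger gene, 17 members started between 147860778 and 148160621. Of the 14 tested there, edgeR and DESeq2 called 0, where edgeR called 0.353% of all tested genes higher. An unadjusted edgeR p under 0.05 was seen for 2 of the 14, beside 6.51% of all tested genes.

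Across the region, 7 of 45 members had every mutant library above every control library in CPM (15.6%, against 6.73% of all genes with 5 or more counts) and 1 had every mutant below (2.22%, against 4.59%). The 7 were the 4 called members with Zfp982, Zfp984 and Nppa, and the 1 was Fv1. The window was drawn with these 4 known to differ, so no excess of the region can be read from the 15.6%. Of the 22 tested members not called, 4 had an unadjusted p under 0.05 (Zfp982, Zfp984, Nppa and Mad2l2), where 6.51% of all tested genes did. Nppa and Mad2l2 were named after their values were seen. Nppa, the natriuretic peptide A gene, had 14, 18 and 20 counts in controls and 20, 28 and 30 in mutants (log2 fold change 0.71 ± 0.29, edgeR adjusted p = 0.623). It overlaps exons of the antisense RNA Gm13054 over 532 bases, and reads of the pair cannot be told apart without strand information. The tested members not called had a median log2 fold change of -0.06, beside -0.01 over all tested genes.

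The 4 noncoding members had too few counts to be tested. Gm20707 had 8, 9 and 8 counts in controls and 5, 7 and 10 in mutants, and Gm13054 had 16, 9 and 2 against 7, 6 and 13. Both had overlapping groups. The pseudogenes Chchd2-ps, with 54 counts in all, and Znf41-ps, with 20, were also below the test's minimum and overlapped between groups. The least expressed members had exactly 5 counts, as Gm13212 (2, 1 and 0 in controls, 0, 0 and 2 in mutants), Gm13245 (1, 3 and 0, then 0, 1 and 0) and Gm13140. Just outside, with 4 counts, were Gm13034, Zfp981 (1, 0 and 0, then 1, 2 and 0) and Nppb (1, 0 and 1, then 1, 0 and 1). Of the window's 63 pseudogenes 37 had no count, as had 6 of its 20 zinc-finger coding genes.

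RefSeq promoters (GRCm38.p6, 250 bases before to 50 after the start) matched 23 of 45 members. Zfp990, Smarca5-ps, Gm16503 and Gm13136 had none. Within the array the promoters of Gm13212, Zfp979, Zfp982, Zfp984, Zfp985 and Zfp988 were 56.7% to 87% identical to each other. That of Zfp933 was 43% to 47.3% identical to those 6. The matched promoter of Zfp993, which lies far from that gene's GENCODE start, was 41% to 43.3% identical to them. A stretch of 51 bases is printed for these 6 because it shows the sequence that these genes of the array have in common just before their starts. The 6 were picked as the zinc-finger promoters that hold the letters GGTCCAG, which lie in the stretch. Capitals mark the 34 bases that are the same in all 6. The stretch ends 12 to 52 bases before the annotated start.
Gm13212, plus strand, chr4:145585112-145585162: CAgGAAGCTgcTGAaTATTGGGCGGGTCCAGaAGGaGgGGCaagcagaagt
Zfp979, minus strand, chr4:147642547-147642597: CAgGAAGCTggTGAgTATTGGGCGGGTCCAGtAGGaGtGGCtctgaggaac
Zfp982, plus strand, chr4:147492318-147492368: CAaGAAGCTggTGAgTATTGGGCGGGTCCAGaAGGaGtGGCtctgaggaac
Zfp984, minus strand, chr4:147809840-147809890: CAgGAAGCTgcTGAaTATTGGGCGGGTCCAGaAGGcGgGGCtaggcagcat
Zfp985, plus strand, chr4:147553193-147553243: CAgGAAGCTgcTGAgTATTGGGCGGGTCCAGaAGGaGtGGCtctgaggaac
Zfp988, plus strand, chr4:147305542-147305592: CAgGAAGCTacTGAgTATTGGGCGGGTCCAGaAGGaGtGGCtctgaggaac

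Motifs were searched on both strands of the promoters. The letters GGTCCAG were picked after the alignment was seen, and the 6 printed promoters are the zinc-finger promoters that hold them. Their presence in all 6 is thus fixed by the choice. None of the other 17 matched members holds them, Zfp933 and Zfp993 included, and 5.27% of 32851 promoters do. GGGCGG stood in 16 of 23 member promoters and 35.7% of all, CCAAT in 9 of 23 and 37.4%, and TATAAA in 2 of 23 and 13.6%. In the printed stretch GGGCGG overlaps GGTCCAG by 1 base and the reverse of CCAAT by 2. These matches describe the letters and name no bound factor. Of the genes with this shared promoter, Zfp979, Zfp982 and Zfp984 were tested and none passed the threshold.

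The machinery known for silencing through zinc-finger proteins and HUSH was taken as a list of 22 genes, all tested. Of these, 2 had an adjusted p under 0.05, both higher in mutants, beside 0.628% of all tested genes at that p in either direction, and neither was called at 2-fold. Fam208a, which encodes TASOR, was at 49.9 ± 6.43 CPM in controls and 85.2 ± 14.5 in mutants (SD, n = 3), a log2 fold change of 0.77 ± 0.12 (edgeR adjusted p = 0.00141). Morc2a, an ATPase that acts with HUSH, was at 58.4 ± 6.28 CPM in controls and 79.4 ± 4.1 in mutants, a log2 fold change of 0.45 ± 0.09 (adjusted p = 0.0208). The corepressor Trim28 (-0.03 ± 0.08) and the methyltransferase Setdb1 (-0.09 ± 0.09) did not pass, and the list's median log2 fold change was -0.01.

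Other zinc-finger windows served as a comparison, with the same minimum count. On chromosome 2 (174.9 to 178 Mb) 0 of 11 tested genes was called, on chromosome 13 (65 to 68 Mb) 0 of 35, and on chromosome 17 (20 to 24 Mb) 0 of 43. Over all tested genes 0.353% were called higher, so windows of this size would hold few calls or none at that share. DESeq2 and limma-voom called 0 in each as well, and 1, 1 and 2 genes had an unadjusted edgeR p under 0.05, beside 6.51% of all tested genes. The median log2 fold change of their tested zinc-finger coding genes was 0.04, 0.07 and 0.06, against 0.36 for the 6 on chromosome 4. Those 6 include Zfp990, which the window was drawn around. The others on chromosome 4 ran from -0.31 to 1.06, and none of them was called. Pseudogenes were tested in the windows of chromosome 13 (1) and chromosome 17 (5), where they ranged from 0.11 to 0.43. These are descriptions, since the chromosome 4 window was chosen with its called genes known.

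**Figure D5:**
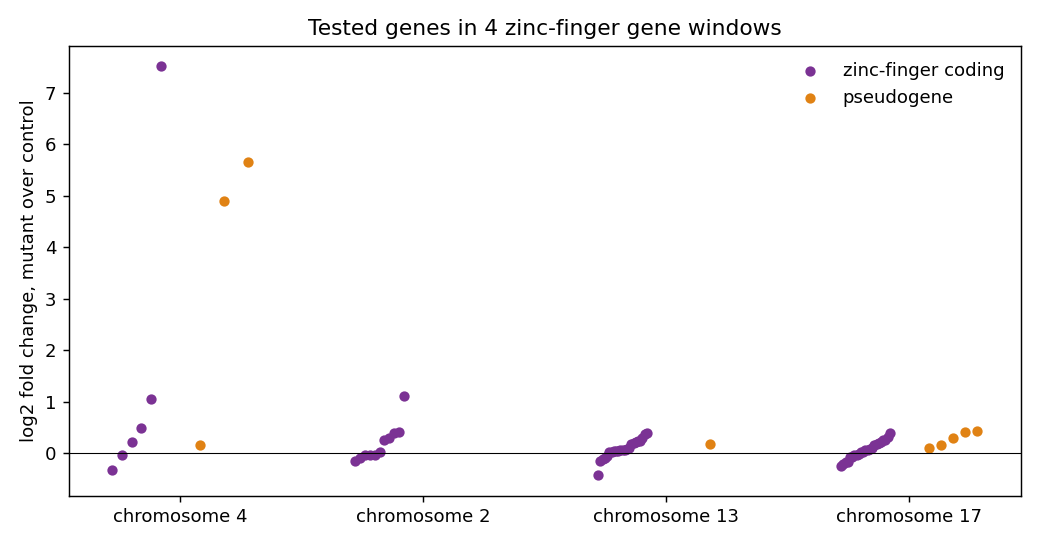
Log2 fold change of mutant over control (vertical axis) for the tested zinc-finger coding genes and pseudogenes, 1 point per gene, in windows of chromosomes 4, 2, 13 and 17. Points above 2 occur in the chromosome 4 window, where they are Zfp990, Smarca5-ps and Gm13136, and the highest value in the other windows is 1.12.

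Marker genes of brain cell types were read in the same libraries. The tissue label was borne out by neuron markers at 2964 to 3220 CPM in controls and 2877 to 3093 in mutants. The summed markers of oligodendrocytes were 19910 to 24030 CPM in controls and 15840 to 18270 in mutants, and 1 of the 5 passed at an adjusted p under 0.05. Choroid plexus markers were at 1385 to 1677 CPM in controls and 1022 to 1219 in mutants, with neither of the 2 passing. Neuron, astrocyte, microglia, endothelium and blood markers had overlapping groups. Germ cell markers, at 2.86 to 3.65 CPM in controls and 2.8 to 4.29 in mutants, overlapped too. The part of these shifts in the called members was not tested.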

How the data were processed

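Per the labels and the study's methods, 1 library was made from each brain, 3 per genotype. The authors trimmed reads with Trim Galore 0.5.0, removed ribosomal, mitochondrial and control reads with Bowtie2 2.3.4.1, aligned the rest to GRCm38 with STAR and deposited raw read counts per Ensembl gene from featureCounts (Subread 1.6.2). The sources used here do not state the strand setting or how reads that fit more than 1 gene were treated, so close copies may exchange reads. From these counts, edgeR 4.0.16 (R 4.3.3) fitted a quasi-likelihood model of genotype to all genes that passed filterByExpr, with TMM scaling and Benjamini-Hochberg adjustment over 16731 genes. Standard errors were derived from the F statistic. CPM use effective library sizes. DESeq2 1.42.0 and limma-voom (limma 3.58.1) were alternatives, and the script was tested on simulated data. The main fit did not use the replicate numbers as pairs, and the labels do not say whether they pair the brains.

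Members, gene lists and motifs were chosen with earlier results of these data known. Genes were named by a rule: those named in the definition of the region, every member with an adjusted p under 0.05, the 5 highest zinc-finger and 5 highest other coding members, every tested zinc-finger member, the extremes of each class, members at the count threshold, and members with 20 or more counts that were not tested. Zinc fingers were counted in translated GENCODE M21 coding sequences, in place of RefSeq proteins, which were not used here. Uniqueness was measured as 50-base words shared with transcripts of other genes. The study describes the brains as those of littermates, but which of them shared a litter is not given here, and p-values measure the spread between these brains.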

Additional observations from a re-analysis of the deposited data

Results flagged for a closer look

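Gm13034, a Smarca5 copy at 146067752 to 146070928 that lay just below the minimum count, had 4 counts summed over the mutant libraries (1, 2 and 1) and 0 in every control. It is given here because that sum exceeds the 3 counts that a count of 0 allows in the controls, although by 1 count. It shared 73.6% of its 50-base words with other genes, 49.1% with Gm13136 and 34.1% with Smarca5-ps.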

How the results depend on the processing

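Zfp990, Smarca5-ps, Gm16503 and Gm13136 were the called members in each of the 13 refits of the table: RLE size factors, DESeq2, limma-voom, 3 other filters on low counts, a replicate block and each library left out, and no member was called lower under any of them. In the 11 refits other than the minimum of 5 counts and that of 1 CPM, their largest adjusted p were 0.00103, 0.003, 0.0148 and 0.00174. With members limited to at most 10% shared words the count fell to 1, by construction. Calls over all genes rose from 60 to 96 without a filter on low counts and to 105 without a fold limit, and ran from 47 to 67 with 1 library left out. The replicate block gave a Mphosph8 log2 change of -1.004 and 4 called members, and changed no call on a named gene. Of 176 refitted values for 16 named members, 170 kept direction and side of the threshold. The 6 that turned sign were all near 0: with 1 library left out, Zfp979 ran from -0.011 to 0.449, Rps19-ps3 from -0.078 to 0.314 and Zfp933 from -0.108 to 0.032, where the first and the second turned without mutant replicate 2 and Zfp933 without control replicate 3. Mfn2 ran from -0.051 (without mutant replicate 1) to 0.060, and Fbxo44 ran from -0.074 to 0.041, turning without control replicate 1 (0.020) and mutant replicate 1. The log2 ratios of the class totals depended on the summary. The mean of log2(CPM + 0.1) gave 0.58 for zinc-finger coding members, 0.64 for pseudogenes and 0.059 for other coding members, against 0.21, 1.22 and -0.06 from sums. Without the member with the most counts the ratios were 0.63 (zinc-finger coding) and 1.54 (pseudogenes). Without the called members, an alternative chosen after seeing the data, the pseudogene ratio was 0.079. Genes with few counts limit what could be resolved: 19 of 45 members were not tested, with a median of 9 counts.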
